A study of Mus musculus with 53 samples.

Results

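The 49 genes described here encode the proteins that license, start and copy DNA, and their transcript levels were measured in the cortex of mouse embryos at day E16.5. They were chosen by symbol among 20214 protein-coding genes: the Mcm, Orc and Gins families, Cdc6, Cdc7, Cdc45, Cdt1 and Gmnn, the subunits of DNA polymerases alpha, delta and epsilon, Rfc1 to Rfc5, Rpa1 to Rpa3, Pcna, Fen1, Rrm1, Rrm2 and Tyms. All 49 were found in the table. The series sequenced RNA from 53 mouse libraries in 19 groups of cultured neurons, astrocytes, hippocampus and embryonic cortex. Analysed here is the cortex group, whole cortical tissue of C57bl/6 embryos that received no stimulation, for which the authors deposited 1 mean per gene over 3 libraries. The other 50 libraries are not analysed here, so no condition is compared with another. Values of single libraries were not used here, so levels are given with no SD and differences between genes with no replicate check and no p-value.

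Replication is prepared in G1, when the origin recognition complex (ORC) binds chromatin and, with Cdc6 and Cdt1, loads rings of the MCM2-7 helicase onto DNA. Geminin binds Cdt1 and keeps origins from being licensed again later in the cycle. In S phase the kinases CDK2 and CDC7 turn the loaded rings into active helicases by adding CDC45 and GINS, and polymerase alpha-primase, the sliding clamp PCNA, its loader RFC and polymerases delta and epsilon build the fork around them. In the embryonic cortex these genes are used by radial glia and intermediate progenitors, which divide near the ventricle, while the neurons they produce no longer replicate. Many replication genes are known targets of E2F transcription factors, which pocket proteins such as RB hold in check.

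The deposited values are RPKM, reads per kilobase and M reads of the library, and the kilobases are those of the whole gene with its introns. Of 743 low values in genes with several exons, 658 (88.6%) lay within 0.5% of what 1 read would give with that length. With exon length, 35 of 472 (7.42%) lay as near to the same 1-read values. The library totals behind those values were fitted with whole gene length and not again with exon length, so the comparison favours whole gene length. Each level is given as deposited (RPKM) and, where the text says so, per kilobase of exon, which takes the counted reads to lie in exons. The fitted library totals were 51.3, 64.8 and 71.6 M reads, 188 M in all, and 3 reads in that total are 0.0160 reads per M. An estimated 181 reads (Fen1) to 21850 reads (Mcm7) lay behind the members, so counting error is small for most of them. Intervals given below are 95% Poisson intervals and cover counting error alone.

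All 49 genes had values above 0, as did 17140 of 20214 protein-coding genes. At least 1 RPKM was reached by 27 of the 49 (55.1%), where 31.6% of protein-coding genes did. The same limit was reached by 46 (93.9%) per kilobase of exon, beside 54.1% of protein-coding genes. Pcna, Pole3 and Mcm7, 3 members or 6.12%, passed 10 RPKM, near the 4.50% of protein-coding genes at that level. The median member stood at 1.36 RPKM and 6.47 per kilobase of exon, and the median protein-coding gene at 0.214 RPKM and 1.58 per kilobase of exon. The median percentile of the members among protein-coding genes was 72.9 as deposited and 70.6 per kilobase of exon. Of the 49, 43 lay above the protein-coding median as deposited and 42 did so per kilobase of exon. Nearest to the limit of 1 RPKM were Pold3 at 1.18 just above it and Rfc4 at 0.931 just below. In bulk tissue, fewer cells of a type and less RNA per cell cannot be told apart.

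**Figure D1:**
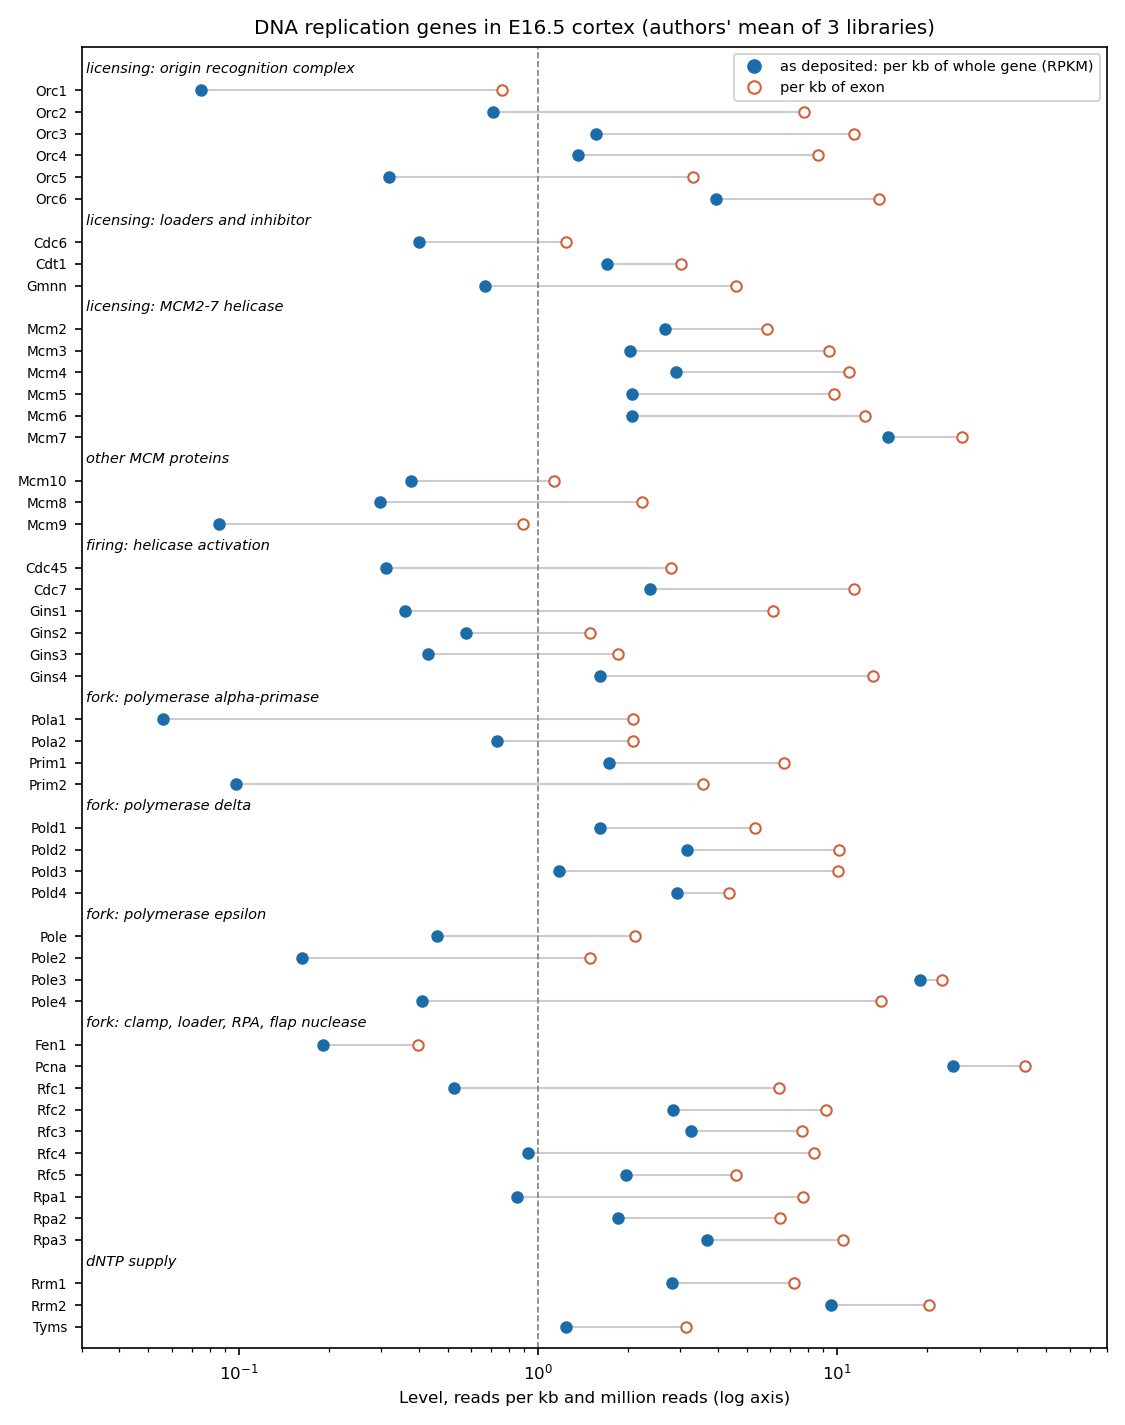
Level of each of the 49 replication genes, grouped by role, as deposited in RPKM (filled points) and per kilobase of exon (open points) on a log axis; each point is the authors' mean of 3 libraries, and the dashed line marks 1. All 6 MCM2-7 genes and all 4 polymerase delta genes sit right of the line on both scales, while Fen1, Orc1 and Mcm9 stay left of it on both.

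**Figure D2:**
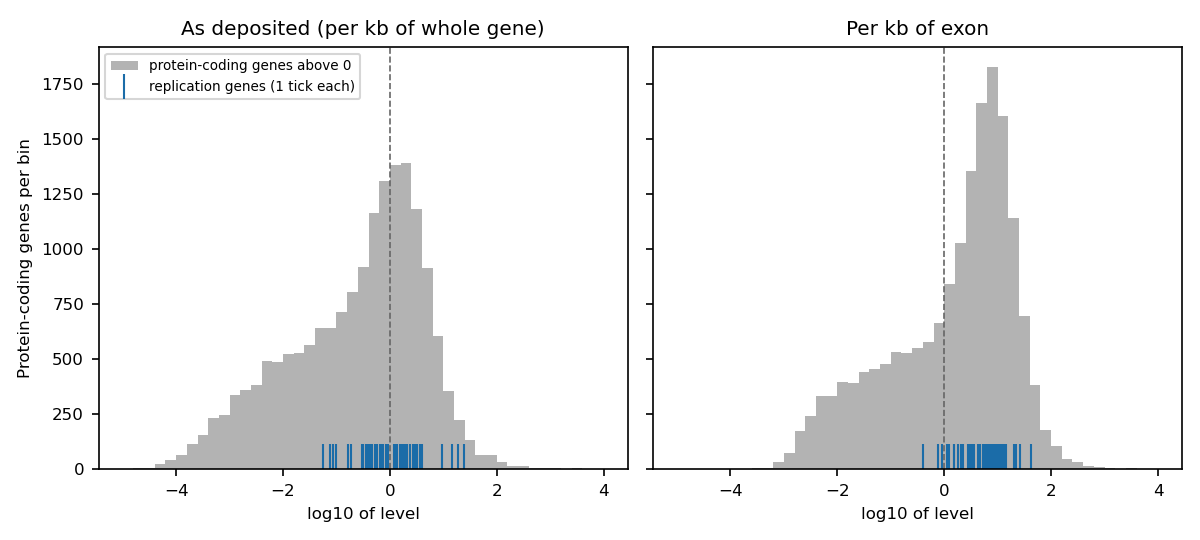
Number of protein-coding genes listed above 0 in each bin of log10 level, as deposited (left) and per kilobase of exon (right), with 1 tick for each of the 49 replication genes and a dashed line at a level of 1. The ticks lie mostly in the main peak of the distribution, with 27 right of the line as deposited and 46 per kilobase of exon.

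The tissue held both dividing and postmitotic cells by its markers. Of 10 radial glia genes 9 reached 1 RPKM, with a median of 9.09 per kilobase of exon, and 6 of 7 intermediate progenitor genes did so, with a median of 13.7. Of protein-coding genes 31.6% reached 1 RPKM. That limit was also reached by 8 of 10 neuron and 4 of 7 red blood cell genes. It was reached by 1 of 6 endothelial, 1 of 7 microglia and 2 of 5 oligodendrocyte precursor genes. Neuron genes had the highest median of the marker lists used here, 108 per kilobase of exon. The medians were 2.45 for endothelial, 1.92 for microglia and 1.99 for oligodendrocyte precursor genes, and the red blood cell list, led by globins, had 35.0. None of the marker genes was listed at 0. Which of these cells gave the replication transcripts was not tested.

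E2F-type words stood in the promoters of 16 of the 41 members (39.0%) that had an entry in the RefSeq promoter table, on build GRCm38.p6. Gins1, Gins2, Gins4, Gmnn, Mcm4, Pole, Prim2 and Rfc2 had no entry. The words searched were TTTGGCGC, TTTCGCGC, TTTCCCGC and GCGGGAAA on both strands, from 250 bases before a transcription start to 50 bases after it; TTTCCCGC and GCGGGAAA are 1 word read on the 2 strands. The same words were found for 459 of 15585 protein-coding genes (2.95%), for 2.12% of all 27025 genes in the table and for 4.32% of the protein-coding genes at 1 or more per kilobase of exon. Member promoters were somewhat richer in G and C, with a median of 61.3% against 57.7% for protein-coding promoters. Between 54.7% and 65.7% GC, 11 of 25 member promoters held a word and 3.71% of 7123 protein-coding promoters did. The 6 windows that follow show such words ahead of genes for licensing and for starting DNA synthesis, each with 30 bases on either side where the window does not reach the start. They are written 5′ to 3′ on the gene's strand, and the capitals mark the E2F-type site, with overlapping words joined into 1 run.
Mcm5, chr8:75109326-75109397, plus strand: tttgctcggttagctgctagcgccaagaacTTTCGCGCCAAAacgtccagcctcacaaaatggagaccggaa
Mcm6, chr1:128359774-128359845, minus strand: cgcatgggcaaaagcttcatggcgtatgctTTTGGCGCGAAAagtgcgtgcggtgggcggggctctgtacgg
Mcm7, chr5:138172011-138172078, minus strand: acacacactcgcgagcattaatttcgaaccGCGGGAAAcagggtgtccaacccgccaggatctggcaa
Orc1, chr4:108579397-108579453, plus strand: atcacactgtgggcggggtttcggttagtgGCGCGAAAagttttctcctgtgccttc
Cdc6, chr11:98907983-98908050, plus strand: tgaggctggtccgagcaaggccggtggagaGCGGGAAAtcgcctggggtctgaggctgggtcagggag
Pola1, chrX:93632256-93632323, minus strand: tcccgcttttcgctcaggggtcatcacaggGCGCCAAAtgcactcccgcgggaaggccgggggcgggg

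The Mcm5 and Mcm6 sites were the longest found, 12 bases in which words of both strands overlap. The Mcm5 site began 153 bases before the start, the Mcm6 site 110, the Mcm7 site 165, the Orc1 site 27, and the Cdc6 and Pola1 sites 138 each. In all, 20 sites were found in the 16 members, 11 that began before the start and 9 at or after it, up to 39 bases downstream. Mcm3, Mcm6, Mcm7 and Rfc3 had more than 1. The other members with a site were Cdt1, Gins3, Mcm8, Orc3, Pold1, Pold3, Pole2 and Pole4. Among 34 of the 45 other replication genes described below, 7 (20.6%) held an E2F-type word, as did 5 of 10 genes for E2F and pocket proteins. A match is a match of letters and is not a measured binding site.

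**Figure D3:**
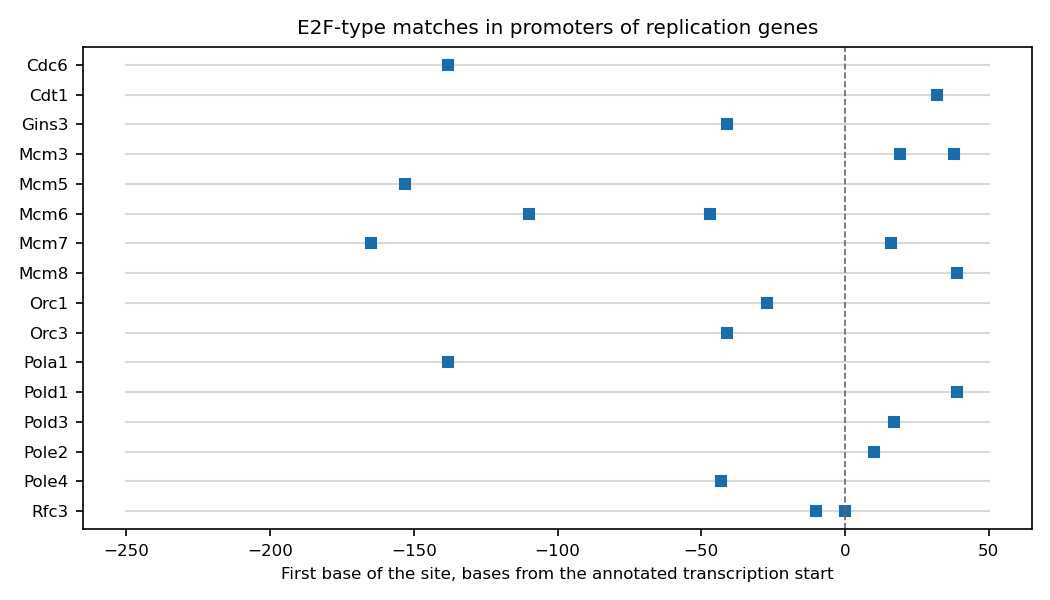
First base of each E2F-type site, in bases from the annotated transcription start (dashed line at 0), for the 16 replication genes that had one in the searched window (grey lines, 250 bases before to 50 after the start). The 20 sites lie between 165 bases before and 39 bases after the start.

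For 2 other kinds of word the shares were nearer to those of protein-coding genes. The CCAAT box (CCAAT, both strands) was found in 26 of 41 members (63.4%) and 42.0% of protein-coding genes. The CHR words TTTGAA and TTCGAA, known from promoters of genes used in G2 and mitosis, were found in 8 of 41 members (19.5%) and 19.1% of protein-coding genes. Mitosis genes showed the other pattern: of 16 with an entry, 12 (75.0%) held a CHR word, 13 (81.2%) a CCAAT box and 1 (6.25%) an E2F-type word. Of the 20 E2F-type sites, 1 overlapped a CCAAT or CHR word. Members with and without an E2F-type word had medians close to each other, 6.48 (16 genes) and 6.64 (25 genes) per kilobase of exon, and 1.37 and 1.73 RPKM in the same order.

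The 6 subunits of the MCM2-7 helicase, which form 1 ring with 1 copy of each, all reached 1 RPKM, with a median of 2.36 RPKM and 10.4 per kilobase of exon. As deposited, 5 of them stood close together: Mcm4 at 2.91, Mcm2 at 2.66, Mcm6 at 2.06, Mcm5 at 2.06 and Mcm3 at 2.03 RPKM. Mcm7 stood apart at 14.8 RPKM (interval 14.6 to 15.0), 7.18-fold above Mcm5. Without Mcm7 the highest was 1.43-fold above the lowest, and with it 7.28-fold, or 4.48-fold with exon length. Per kilobase of exon the distance of Mcm7 shrank to 2.69-fold above Mcm5, at 26.3 against 9.75, with Mcm6 at 12.4, Mcm4 at 11, Mcm3 at 9.41 and Mcm2 at 5.86. Mcm7 was still the highest of the 6. A processed pseudogene, Gm5487, matches 72.8% of the Mcm7 transcript at 97.7% identity, and 12.6% of the exon bases of Mcm7 are shared with other genes, so its value depends on how reads that fit more than 1 gene were treated. The promoter of Mcm7 held all 3 kinds of word searched, and E2F-type words were found in 4 of the 5 MCM2-7 genes with an entry, all except Mcm2.

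The 3 MCM genes outside the ring were far lower. Mcm10, needed when the helicase is activated, stood at 0.376 RPKM, and Mcm8 and Mcm9, partners in recombination repair, at 0.296 and 0.0863 RPKM. Their levels were 1.13, 2.24 and 0.892 per kilobase of exon, a median of 1.13 that lay below that of protein-coding genes (1.58), whereas their deposited median of 0.296 lay above (0.214). Mcm3 was 5.41-fold above Mcm10 in RPKM and 8.34-fold above it with exon length. Mcm9 shares 19.2% of its exon bases with the histone chaperone gene Asf1a on the opposite strand.

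In the origin recognition complex 1 subunit, Orc1, lay far below the others. Orc6, the smallest subunit, stood at 3.94 RPKM, Orc3 at 1.57 and Orc4 at 1.36, while Orc2 at 0.708, Orc5 at 0.318 and Orc1 at 0.0748 RPKM were under 1. Orc1, the ATPase subunit whose protein is known to vary over the cell cycle, was the lowest of the 6 on both scales. Its value rested on an estimated 498 reads (interval 0.0684 to 0.0817 RPKM). Per kilobase of exon Orc1 stood at 0.761, beside 13.8 for Orc6, 11.4 for Orc3, 8.66 for Orc4, 7.77 for Orc2 and 3.3 for Orc5. Orc1 was therefore 0.106 times Orc2 as deposited and 0.0980 times per kilobase of exon, a ratio that hardly moved with the length used. The spread from Orc1 to Orc6 was 52.6-fold in RPKM, and 18.1-fold with exon length. Without Orc1 the ranges of the other 5 were 12.4-fold and 4.18-fold. The span of Orc1 differs between the annotations compared (0.878 times that in RefSeq), and Orc1 shares 10.8% of its exon bases with Gm12743 on the opposite strand. Orc2 shares 29.8% of its exon bases with Nif3l1, so the values of both are less certain.

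Cdt1 and Cdc6, which load the helicase together with ORC, stood below every MCM2-7 gene on both scales. Cdt1 stood at 1.71 RPKM and Cdc6, the ATPase that works beside it, at 0.401 RPKM. Cdt1 was 4.26-fold above Cdc6 in RPKM and, at 3.02 against 1.24 per kilobase of exon, 2.44-fold above it on that scale. A processed pseudogene, Gm9430, matches 26.2% of the Cdc6 transcript at 95.2% identity, so the value of Cdc6 is less certain. Geminin (Gmnn), the inhibitor of CDT1, stood at 0.666 RPKM and 4.59 per kilobase of exon. The order of inhibitor and target turned with the length: Gmnn was 0.390 times Cdt1 as deposited and 1.52 times per kilobase of exon, since Gmnn spans 10.1 kb with 1.47 kb of exon and Cdt1 spans 5.54 kb with 3.14 kb. Cdc6 and Cdt1 held E2F-type words, that of Cdc6 among the windows printed above.

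Of the genes for helicase activation, Cdc7 was highest as deposited and Gins4 per kilobase of exon. Cdc7, the catalytic subunit of the kinase that phosphorylates MCM proteins, stood at 2.38 RPKM and 11.4 per kilobase of exon. Its activator Dbf4, from the list of other replication genes, stood at 1.01 RPKM and 2.97 per kilobase of exon. Of the 4 GINS subunits, which form 1 complex, Gins4 stood at 1.61, Gins2 at 0.575, Gins3 at 0.431 and Gins1 at 0.359 RPKM. With exon length the values were 13.2, 1.5, 1.85 and 6.13, so that Gins1 moved from the lowest of the 4 to the second. Gins2 shares 67.3% of its exon bases with Gse1 on the opposite strand, and the spans of Gins1 and Gins2 differ by over 1.1 times between the annotations compared, so their ratio is uncertain. Gins3 was 0.268 times Gins4 as deposited and 0.140 times per kilobase of exon, with spans that did not differ so. Cdc45, which joins GINS and MCM in the active helicase, stood at 0.310 RPKM and 2.79 per kilobase of exon.

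Polymerase alpha-primase, which lays down the RNA-DNA primers, had the lowest deposited median of the fork complexes, 0.416 RPKM. Its catalytic subunit Pola1 was the lowest of all 49 members as deposited, at 0.0561 RPKM, but an estimated 3454 reads lay behind it, spread over a gene of 327 kb. Pola2, the accessory subunit, stood at 0.733 RPKM. Per kilobase of exon the pair came together, at 2.08 for Pola1 and 2.09 for Pola2, where the deposited ratio was 0.0765. The primase subunits also drew closer on that scale. Prim1 at 1.73 was 17.5-fold above Prim2 at 0.0984 RPKM, and 1.85-fold above it per kilobase of exon (6.64 and 3.58). With the length of the longest transcript Pola1 was 0.570 times Pola2, and Prim1 was 0.945 times Prim2. The fold range over the 4 subunits fell from 30.8 to 3.18 when exon length was used.

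Polymerase delta, the lagging-strand polymerase, was even on both scales. Pold2 stood at 3.16, Pold4 at 2.93, Pold1, the catalytic subunit, at 1.61 and Pold3 at 1.18 RPKM, and all 4 reached 1 RPKM. With exon length they stood at 10.2, 4.36, 5.34 and 10.1, a 2.34-fold range. Pold3 and Pold4 changed places, with a ratio of 0.403 as deposited and 2.32 per kilobase of exon. Pold4 shares 24.6% of its exon bases with another gene on the same strand, so its value and this ratio are less certain. Pold1 was 3.50-fold above Pole, the catalytic subunit of the leading-strand polymerase, and 2.53-fold above it per kilobase of exon.

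Polymerase epsilon was the most uneven of the polymerases. Pole3, a histone-fold subunit that is also found in a chromatin remodelling complex, stood at 18.9 RPKM, Pole at 0.461, its histone-fold partner Pole4 at 0.410 and Pole2 at 0.163 RPKM. Pole3 was 46.2-fold above Pole4 as deposited, but 1.59-fold per kilobase of exon, at 22.5 and 14.1. The other pair, Pole and Pole2, stood at 2.11 and 1.5 per kilobase of exon. Thus both histone-fold subunits were well above the catalytic subunit on that scale, Pole3 by 10.6-fold. The spans of Pole3 and Pole4 are 1.99 and 2.37 times those in RefSeq, so the levels of both depend on the annotation.

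**Figure D4:**
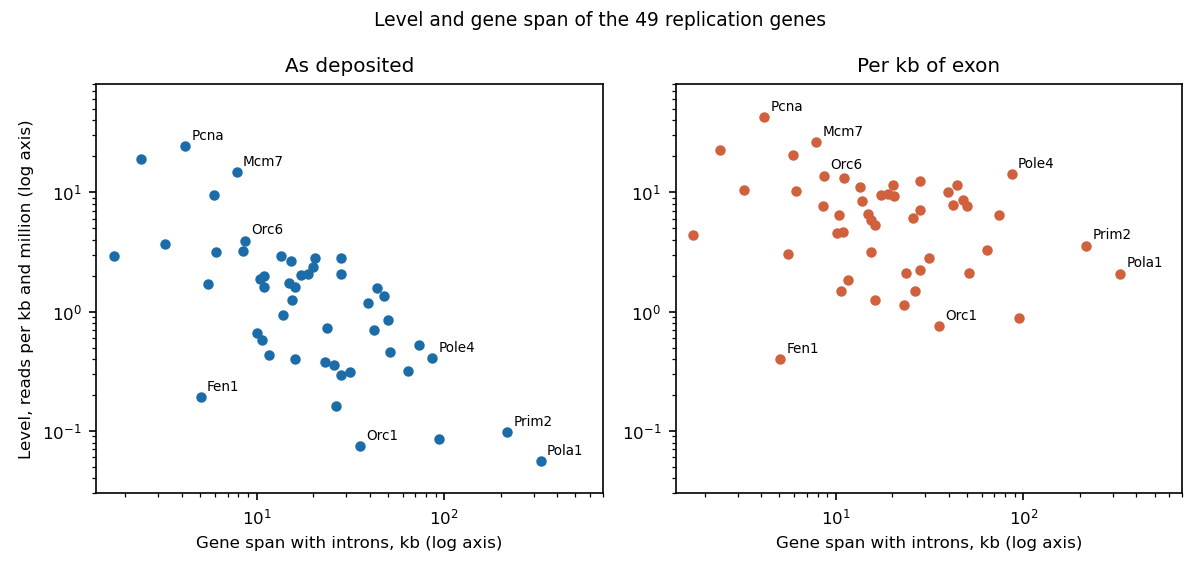
Level of the 49 replication genes against gene span with introns in kilobases, as deposited (left) and per kilobase of exon (right), both axes logarithmic, 1 point per gene with 8 of them named. Pola1 and Prim2, at the right end of the left panel, stand at 0.0561 and 0.0984 RPKM and move up to 2.08 and 3.58 per kilobase of exon, while Fen1 and Orc1 stay low in both panels.

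Over the 49 members the deposited level fell with gene span: Spearman's rho was -0.65, and -0.26 for levels per kilobase of exon. The deposited value is itself divided by span, and all points come from the same libraries, so these are descriptions. Over protein-coding genes the same coefficients were 0.04 and 0.25. The order of members on the 2 scales was related, with rho 0.76.

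PCNA, the clamp that tethers polymerases to DNA and recruits many fork proteins, had the highest level of the 49 on both scales. Pcna stood at 24.5 RPKM (interval 24.2 to 24.9) and 42.4 per kilobase of exon, at percentile 98.3 and 96.5 of protein-coding genes. Its level was 9.20 times that of Mcm2 as deposited and 7.24 times with exon length. The pseudogene Pcna-ps2 matches 51.4% of its transcript at 99.2% identity. Pcna had no E2F-type word of those searched in the window, but had a CCAAT box.

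The genes of the clamp loader and of the single-strand binding protein drew closer together when exon length was used. Of the loader genes, Rfc3 stood at 3.25, Rfc2 at 2.84, Rfc5 at 1.97, Rfc4 at 0.931 and the large subunit Rfc1 at 0.525 RPKM. Per kilobase of exon they lay between 4.61 (Rfc5) and 9.22 (Rfc2), with Rfc4 at 8.38, Rfc3 at 7.63 and Rfc1 at 6.43. Rfc4 overlaps the translation factor gene Eif4a2, at 78.1 RPKM, in 12.7% of its exon bases. The values at both ends of that range are uncertain: the spans of Rfc2 and Rfc5 are 1.31 and 1.11 times those in RefSeq, they share 15.1% and 10.7% of their exon bases with other genes, and Rfc5 has a near-identical copy. Of the RPA genes, whose products coat single-stranded DNA as a trimer, Rpa3 stood at 3.69, Rpa2 at 1.86 and Rpa1, the large DNA-binding subunit, at 0.855 RPKM. The values were 10.5, 6.47 and 7.68 per kilobase of exon.

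Fen1, the nuclease that cuts the flaps of Okazaki fragments, stood at the other end. It had 0.191 RPKM (interval 0.165 to 0.221) and 0.398 per kilobase of exon, the lowest of the 49 on the exon scale, from an estimated 181 reads, the fewest of any member. The ligase gene Lig1, which seals the same fragments, stood at 1.32 RPKM and 10.6 per kilobase of exon, so Fen1 was 0.145 times Lig1 as deposited and 0.0377 times per kilobase of exon. In the annotation used, 84.2% of the exon bases of Fen1 are shared with other genes, chiefly the antisense gene Gm10143, which stood at 0.203 RPKM. If the counting left out reads that fit more than 1 gene, most of the gene could not have been counted; the sources used here do not say. The low value of Fen1 is therefore uncertain.

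Of the genes for nucleotide supply, Rrm2 stood at 9.56 RPKM, Rrm1 at 2.81 and Tyms, thymidylate synthase, at 1.24 RPKM. Rrm1 and Rrm2 encode the large and the small subunit of ribonucleotide reductase, the enzyme that makes deoxynucleotides. Rrm2 was 3.40-fold above Rrm1 as deposited, 2.84-fold per kilobase of exon and 1.78-fold per kilobase of the longest transcript. Tyms was 0.130 times Rrm2 as deposited and 0.154 times per kilobase of exon (3.14 against 20.4). The span of Tyms is 0.439 times that in RefSeq and it has 57 near-identical stretches elsewhere in the annotated transcripts, so its level is the least certain of the 3. Rrm2 is also less certain, since the processed pseudogene Gm48455 matches 19.1% of its transcript at 95.5% identity. Rrm2b, the alternative small subunit known to serve DNA repair and resting cells, stood at 0.455 RPKM and 1.86 per kilobase of exon.

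A few genes held much of the signal. The 49 members together held 0.161% of the summed RPKM, and Pcna, Pole3, Mcm7 and Rrm2 held 52.4% of the members' part. With exon length the 4 highest held 28.6%. From the lowest to the highest member the range was 437-fold as deposited and 106-fold with exon length. The exon range runs from Fen1, whose low value is uncertain, to Pcna. Of 34 pairs of genes compared, such as subunits of 1 complex or an enzyme and its partner, 26 kept their order per kilobase of exon and 8 did not, and the ratio of 24 moved by over 1.5 times.

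The other genes of the pathway, 45 from a list that holds none of the members, had lower medians, 0.881 RPKM and 3.17 per kilobase of exon beside 1.36 and 6.47 for the members. Of these 45, 22 reached 1 RPKM, beside 31.6% of protein-coding genes. Per kilobase of exon 44 did so, beside 54.1% of protein-coding genes. Among 11 firing factors and regulators, Cdk2, the kinase that starts S phase, stood highest at 2.07 RPKM, then Donson at 2.01. Mcmbp, which binds subunits of MCM2-7, stood at 1.69 and Mtbp lowest at 0.131 RPKM. These 4 genes stood at 2.36, 7.69, 14.6 and 1.65 per kilobase of exon. Among 13 genes listed for fork protection and progression, Chtf8, part of an alternative clamp loader, stood at 9.70 RPKM. The topoisomerase genes Top2b and Top2a stood at 6.98 and 4.63 and Mms22l lowest at 0.161 RPKM. With exon length the levels in the same order were 31.1, 33.6, 16.1 and 2.68. Top2b is not specific to replication, and which cells gave its transcripts was not tested. The 6 genes for removal of RNA and joining of Okazaki fragments stood at 26.0 (Rnaseh2c), 10.6 (Lig1), 6.64 (Rnaseh2a), 5.48 (Rnaseh1), 3.17 (Rnaseh2b) and 1.84 (Dna2) per kilobase of exon. The Fen1 value of 0.398, itself uncertain, lay below all 6. Of 9 further nucleotide genes, the thymidylate kinase gene Dtymk stood at 6.05, Dck at 3.02, Dut at 2.84 and Dctd lowest at 0.316 RPKM, or 21.5, 14.6, 13.5 and 5.02 per kilobase of exon. Of 6 genes for nucleosome assembly behind forks, the FACT subunit genes Ssrp1 and Supt16 stood at 53.4 and 20.4 and the histone chaperone gene Nasp at 28.3 per kilobase of exon. Ssrp1 was above the highest member, Pcna at 42.4. Chaf1b, Chaf1a and Asf1b, of which the first pair encode subunits of the assembly factor that PCNA recruits, stood lower, at 3.07, 2.37 and 1.91.

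Mitosis genes had medians near those of the members, 1.20 RPKM and 7.39 per kilobase of exon over 18 genes. Of the 18, 12 reached 1 RPKM, beside 31.6% of protein-coding genes. The proliferation marker gene Mki67 stood at 6.02, Cdc20, an activator of the anaphase-promoting complex, at 5.28, the cyclin gene Ccnb1 at 3.88 and Kif20b lowest at 0.332 RPKM. With exon length these were 15.9, 12.6, 7.28 and 2.54. Of 13 genes for E2F and pocket proteins, E2f4 stood at 4.45, Tfdp1, the partner of E2F proteins in binding DNA, at 2.48, E2f1 at 1.48 and E2f2 lowest at 0.207 RPKM. With exon length these were 14.0, 26.9, 4.92 and 1.0.

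**Figure D5:**
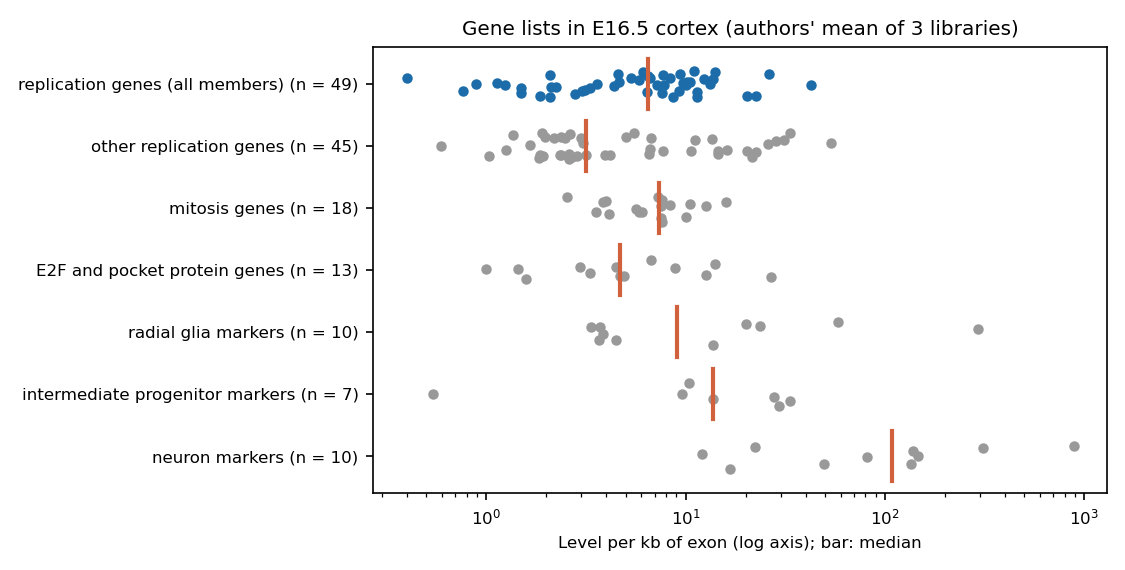
Level per kilobase of exon on a log axis for the 49 replication genes (blue) and for 6 other gene lists (grey), 1 point per gene, with points spread vertically for legibility and a bar at each median. The medians stand at 6.47 for the members, 3.17 for other replication genes, 7.39 for mitosis genes and 108 for neuron markers.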

How the data were processed

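RNA from 3 libraries of embryonic cortex was measured, and the authors deposited 1 column of RPKM per gene, their mean, so replicates could neither be compared nor left out. HTSeq 0.6.0, DESeq 1.16.0, Cuffdiff 2.0.2, TopHat2 2.0.9 and Bowtie2 2.1.0 were named, with no roles, per the submitters' processing notes, with build mm9. The sources used here do not give how reads were counted, their length or strand, or whether the libraries came from separate animals.

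Gene IDs were matched to GENCODE M21 (32919 had a symbol; 5072 without one held 2.30% of the summed RPKM). M21 lies on a later build, so the data carry no coordinates here. Values per kilobase of exon are RPKM times span over the union of exons, and spans of 41 members lay within 1.1 times of RefSeq's. Read numbers were estimated by multiplying RPKM, span and the summed depth. Overlaps counted above 10% of exon bases on either strand, and near-identical copies were blastn 2.17.0 matches of at least 200 bases and 95% identity. Calculations used Python 3.11.15, pandas 2.3.3 and scipy 1.17.1.

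No test was possible, so counts, medians and ranks are set beside those of all protein-coding genes. The members and lists were chosen with earlier results of these data known. All members, both genes of each pair and, of other lists, the 3 with the highest RPKM and the lowest (all where 6 or fewer) were to be named; cell type markers are given as lists instead, and further genes named were chosen after their values were seen. Protein sequences were not used here.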

Additional observations from a re-analysis of the deposited data

How the results depend on the processing

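The count of 27 members at 1 RPKM became 46 per kilobase of exon, 47 per kilobase of the longest transcript, 17 at a limit of 2 and 4 at a limit of 5. The median member exceeded the median protein-coding gene by 2.22 on the log2(RPKM + 0.1) scale. That difference was 1.97 per kilobase of exon, 1.98 per kilobase of the longest transcript, 1.39 with means, 2.16 without the highest member, 0.959 with a pseudocount of 1, 2.61 with 0.01, and 2.41 both for members with stable spans and for members without shared exons or copies. The share of 0.161% became 0.188% per kilobase of exon and 0.175% for reads with no length. The median percentile of 72.9 became 70.6 per kilobase of exon, 68.1 among genes above 0, 84.0 among all gene IDs and, with members and background both limited to genes at 1 RPKM or more (27 members), 40.8. The median of the 3 MCM genes outside the ring minus that of protein-coding genes turned to -0.447 per kilobase of exon. Log2 ratios that turned per kilobase of exon were Gmnn/Cdt1 at 0.604, Pold3/Pold4 at 1.21, Mcm2/Mcm3 at -0.683, Mcm4/Mcm6 at -0.181, Gins1/Gins2 at 2.03, Cdc45/Gins2 at 0.895, Rfc3/Rfc4 at -0.134 and Rpa1/Rpa2 at 0.248. Those that turned per kilobase of the longest transcript were Gmnn/Cdt1 at 0.763, Pold3/Pold4 at 1.45, Prim1/Prim2 at -0.0818, Mcm4/Mcm6 at -0.280, Gins1/Gins2 at 2.44 and Cdc45/Gins2 at 1.53. These turns come from the length used, since the reads are the same. Chosen after seeing the data were the longest-transcript count and median, the values for stable spans, shared exons and no length, and exon ranges without the lowest member. No paired analysis was possible because only the mean of the libraries is given, and no library could be left out.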

Other observations

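Several members lie head to head with a neighbouring gene. In the annotation used, 9 of the 49 (18.4%) start within 1000 bases of a protein-coding gene transcribed away from them on the opposite strand. The same holds for 1426 protein-coding genes (7.05%). Pairs of genes that overlap were not counted. Mcm4 lies 466 bases from Prkdc, which encodes the catalytic subunit of a DNA repair kinase, and stood at 11 against 1.79 per kilobase of exon. Orc3 lies 13 bases from Rars2, a mitochondrial tRNA ligase gene, and stood at 11.4 against 7.15. Orc1 lies 87 bases from the splicing factor gene Prpf38a and was the lower of the pair, at 0.761 against 8.41 per kilobase of exon. Mcm8 was likewise below Trmt6 (2.24 and 6.24) and Gins1 below Abhd12 (6.13 and 15.8). In the other 6 pairs the member was higher per kilobase of exon. In Pole3, Rpa3, Rpa1 and Pole these levels were 22.5, 10.5, 7.68 and 2.11, against 0.373, 2.32, 3.12 and 0.712 for 4933430I17Rik, Umad1, Smyd4 and Pxmp2. The order of the pairs therefore had no common direction.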
